A study of Rattus norvegicus with 12 samples.

Results

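Genes of the presynaptic vesicle cycle and of axon growth were followed as 6 rows of the deposited hippocampal expression table: Snap25 (ENSRNOG00000006037), Syt1 (ENSRNOG00000006426), Syn1 (ENSRNOG00000010365), Vamp2 (ENSRNOG00000006989), Slc17a7 (ENSRNOG00000020650) and Gap43 (ENSRNOG00000001528). The rows were taken by Ensembl gene ID from a list that was drawn up with earlier results of these data known, and make up 6 of 28959 rows in all. All 6 passed the filter of a mean of at least 0.5 FPKM (a read count divided by the length of the gene and by the size of the library), as did 15253 rows in total. Symbols come from the list that defined the genes. Neither the deposited table nor the reference used here pairs Ensembl IDs with names, so other synaptic genes and markers of hippocampal cell types could not be matched to rows.

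Total RNA from the hippocampus of Sprague Dawley rats, stated to be 6 to 7 weeks old, was sequenced in 4 groups, each of 3 libraries. The Ctrl-Sal group was unstressed and given saline. CUMS-Sal, CUMS-Flx and CUMS-Alb rats shared 5 weeks of chronic unpredictable mild stress, a schedule of varying mild stressors used to model depression in rodents, and differed in what they were given over 7 days in the last week. CUMS-Sal received saline, CUMS-Flx the serotonin reuptake inhibitor fluoxetine, and CUMS-Alb albiflorin, a monoterpene glycoside of peony root, at 7 mg/kg/d. For fluoxetine the sample labels state 10 mg/kg/d, whereas the text of the series states 7 mg/kg/d. No unstressed group received a drug. Nothing in the labels says that libraries of a group are separate animals, so p-values are relative to a spread between libraries that may be technical only.

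At a nerve terminal, transmitter is packed into vesicles that wait near the membrane and fuse with it when calcium enters. Synaptobrevin-2, the product of Vamp2, sits on the vesicle and pairs with SNAP-25 (Snap25) and syntaxin on the cell membrane to form the SNARE complex that drives fusion. Synaptotagmin-1 (Syt1) is the vesicle's calcium sensor for fast release, and synapsin I (Syn1) tethers vesicles in the reserve pool. VGLUT1, encoded by Slc17a7, loads glutamate into the vesicles of most excitatory neurons of hippocampus and cortex. GAP-43 (Gap43) belongs to the growth cone and to presynaptic membranes and is known for axon growth, sprouting and regeneration.

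The reference table of promoters, from RefSeq with build GRCr8, held 4 of the 6 genes (Slc17a7, Syn1, Syt1 and Vamp2). The sequence of Syn1 is shown because its promoter was the only window of these 4 to hold the full cAMP response element TGACGTCA, the site of the activity-regulated factor CREB, on either strand. Capitals mark the element in the 250 bases before the start, chrX:3725495-3725744 on the plus strand.

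Syn1: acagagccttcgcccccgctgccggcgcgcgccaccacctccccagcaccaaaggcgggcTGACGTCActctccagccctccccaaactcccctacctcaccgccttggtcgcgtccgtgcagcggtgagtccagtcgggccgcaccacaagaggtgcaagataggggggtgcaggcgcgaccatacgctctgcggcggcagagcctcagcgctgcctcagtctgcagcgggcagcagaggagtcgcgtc

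The shorter core TGACG, which the full element holds once on each strand, was also found in Vamp2, 29 bases before the start that the table uses. The stretch around it is at chr10:54292750-54292774 on the plus strand, with the core in capitals.

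Vamp2: cggatgcgggTGACGtgcggccgcc

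Windows of 300 bases held the full element in 1.83% of 33469 rat promoters and the core in 21.2%. The GC box GGGCGG, searched on both strands, was in 33.1% of promoters and in each of the 4 windows, with 3 matches in Slc17a7, 3 in Syt1, 3 in Vamp2 and 1 in Syn1. These are matches of letters, and binding was not measured.

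All 6 transcripts were abundant in every library. On the FPKM scale, which allows for gene length, the order by mean was Snap25 (2108 FPKM), Slc17a7 (682), Syt1 (661), Vamp2 (440.1), Syn1 (212) and Gap43 (124). Snap25 ranked 15th and Gap43 540th of the 15253 genes tested. Together the 6 genes took between 0.692% and 0.805% of the reads of a library. Whole reads could be recovered from the FPKM values, and ranged from 2552 to 3319 per library for Gap43 and from 26252 to 39163 for Snap25. Counting error, as a coefficient of variation at the mean reads of each gene, was therefore largest for Gap43, at 1.83%. Replicates of a group varied by 4.61% (Syt1) to 10.0% (Slc17a7), pooled over the 4 groups.

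Libraries held 14735953 to 18109623 reads. Ctrl-Sal replicate 2 stood apart from the rest on the first principal component, at -44.7 against -12.2 to 15.1 for the other 11, so log2 differences from Ctrl-Sal are also given without it. The 9 rows that each took over 1% of all reads together held 17.4% to 22.0% of reads in Ctrl-Sal, 14.8% to 15.04% in CUMS-Sal, 15.3% to 18.8% in CUMS-Flx and 14.6% to 15.6% in CUMS-Alb.

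**Figure D1:**
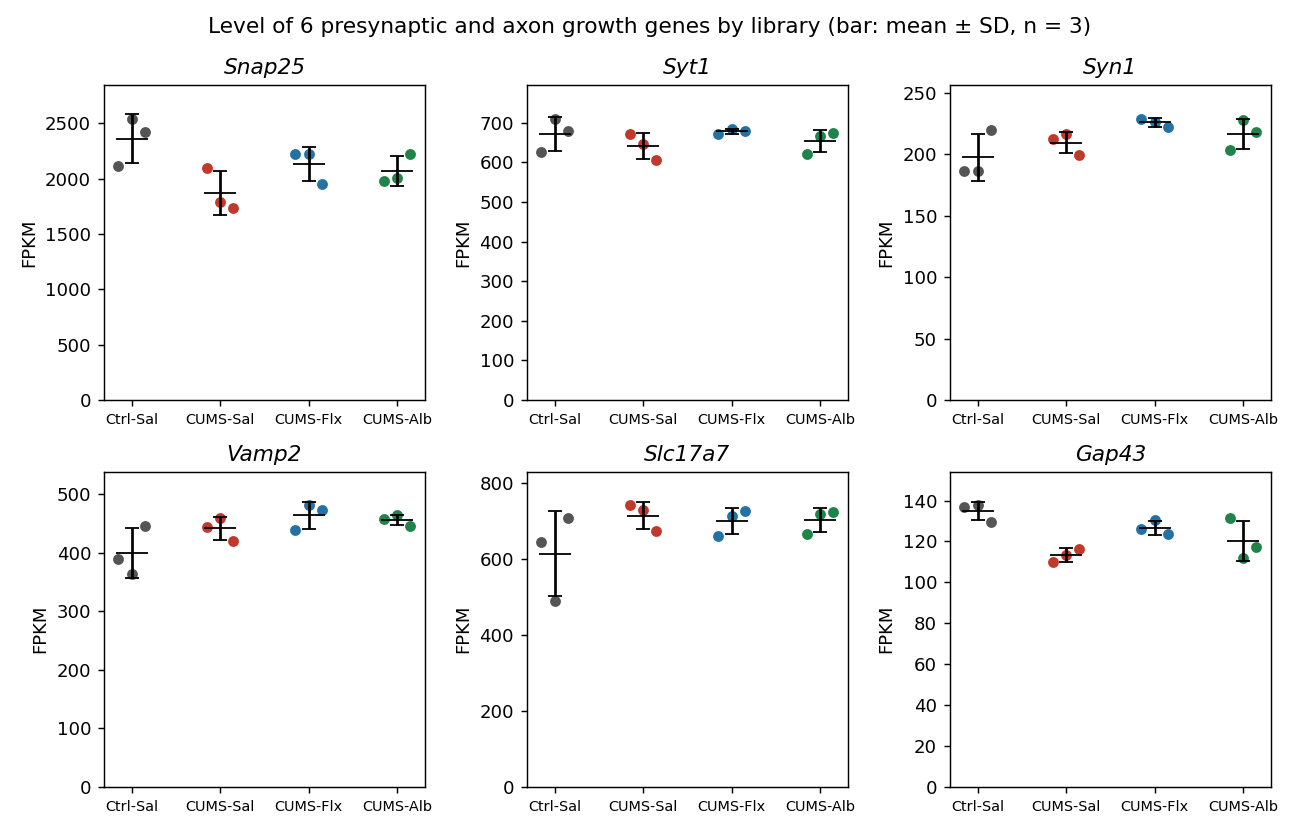
FPKM of each gene (vertical axis, from 0) in the 12 libraries, by group; points are libraries and bars the mean ± SD of 3. Snap25 and Gap43 are lowest in CUMS-Sal, with no overlap with Ctrl-Sal, and Ctrl-Sal replicate 2 is the lowest library for Slc17a7, at 489.7 FPKM.

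What differed after stress alone was read from the saline groups, CUMS-Sal against Ctrl-Sal. In stressed rats the membrane SNARE gene Snap25 fell by 20.8% and the growth protein gene Gap43 fell by 15.8%. The vesicle genes Syt1, Syn1, Vamp2 and Slc17a7 did not pass the test. These are 2 of the 6 genes called, both lower. In whole tissue, fewer cells of a type and less RNA per cell cannot be told apart. Among the 15253 genes 9.19% were called in either direction and 1.14% were called lower, at a limma p adjusted by the Benjamini-Hochberg method under 0.05. That split of all genes depended on scaling: lower genes made up 12.4% of the calls, 43.9% after quantile normalisation, 51.0% with each library's median deviation from the gene means set to 0 and 65.2% with library medians set equal. Libraries of the groups did not overlap in 2 of the 6 genes, both lower, against 31.1% of all genes in either direction and 5.85% in the lower direction.

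Snap25 stood at 2118, 2541 and 2425 FPKM in Ctrl-Sal replicates 1, 2 and 3 and at 2094, 1786 and 1732 FPKM in those of CUMS-Sal. The highest stressed library lay just under the lowest unstressed one. The group means were 2361 ± 219 and 1871 ± 195 FPKM (SD, n = 3). On the log2(FPKM + 0.5) scale Snap25 fell by 0.34 (SE 0.09, 95% interval -0.54 to -0.13, limma adjusted p = 0.0461, lower in 3 of 3 libraries).

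Gap43 stood at 137, 138 and 129.7 FPKM in Ctrl-Sal and at 110.1, 113 and 117 FPKM in CUMS-Sal. Its groups were well apart for their spread, with means of 135 ± 4.45 and 113 ± 3.24 FPKM (SD, n = 3). The log2 difference was -0.25 (SE 0.06, 95% interval -0.39 to -0.11, limma adjusted p = 0.0381, lower in 3 of 3 libraries).

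Both calls lay close to the threshold. Without Ctrl-Sal replicate 2 neither passed, at log2 differences of -0.28 for Snap25 (adjusted p = 0.118) and -0.23 for Gap43 (adjusted p = 0.085). Both also ended without CUMS-Sal replicate 2 (adjusted p = 0.14 and 0.113) or replicate 3 (0.128 and 0.0798). The Snap25 call ended without Ctrl-Sal replicate 3 (0.061), and that of Gap43 without Ctrl-Sal replicate 1 (0.0643) or CUMS-Sal replicate 1 (0.0886). Neither gene passed with no filter on low values (adjusted p = 0.0725 and 0.0614), without the trend and robust settings of limma (0.0662 and 0.0622) or with only the 2 groups in the fit (0.144 and 0.129), and Snap25 did not after quantile normalisation (log2 difference -0.24, adjusted p = 0.208). Over these and the other alternatives the adjusted p ran from 0.0252 to 0.208 for Snap25 and from 0.0202 to 0.129 for Gap43, always with the lower value in CUMS-Sal.

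The calcium sensor Syt1 showed overlapping groups, at 625, 709.8 and 678 FPKM in Ctrl-Sal and 671, 646 and 606 FPKM in CUMS-Sal. Its log2 difference was -0.07 (95% interval -0.20 to 0.07, limma adjusted p = 0.524). Syn1 lay at 186, 187 and 219 FPKM in Ctrl-Sal and within that range, at 212, 217 and 199 FPKM, in CUMS-Sal (log2 difference 0.09, 95% interval -0.07 to 0.24, limma adjusted p = 0.439). Without Ctrl-Sal replicate 2 the log2 differences were -0.02 for Syt1 (limma adjusted p = 0.86) and 0.05 for Syn1 (adjusted p = 0.726).

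Vamp2, the vesicle SNARE, was at 388, 363 and 446 FPKM in Ctrl-Sal and 444, 459.9 and 419.7 FPKM in CUMS-Sal. Its log2 difference was 0.15 (95% interval -0.02 to 0.31, limma adjusted p = 0.206). Slc17a7 was at 645, 489.7 and 707 FPKM in Ctrl-Sal and 740.3, 727 and 673 FPKM in CUMS-Sal, a log2 difference of 0.23 (95% interval -0.00405 to 0.47, limma adjusted p = 0.174). Ctrl-Sal replicate 2 was the lowest of the 12 libraries for both genes. Without it the log2 differences were 0.08 for Vamp2 (adjusted p = 0.519) and 0.08 for Slc17a7 (adjusted p = 0.536). Without Ctrl-Sal replicate 3, in contrast, both passed as higher in CUMS-Sal, at 0.23 (adjusted p = 0.0351) and 0.34 (adjusted p = 0.0397). Among all 15253 genes the number called in either direction also rose then, from 1402 to 2637.

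The median log2 difference of all 15253 genes was 0.10, and that of the 6 genes 0.01. Measured against that shift, after each library's median deviation from the gene means was set to 0, Snap25 stood at -0.44 (adjusted p = 0.0389) and Gap43 at -0.35 (adjusted p = 0.0285), both still called. On that scale Syn1 turned to -0.01, and with library medians set equal Syn1 was at -0.06 and Vamp2 at -0.00291, so the sign of these differences depended on the scaling. Snap25 had a log2 difference below that of all but 2.74% of the genes tested, and Gap43 below all but 5.34%.

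**Figure D2:**
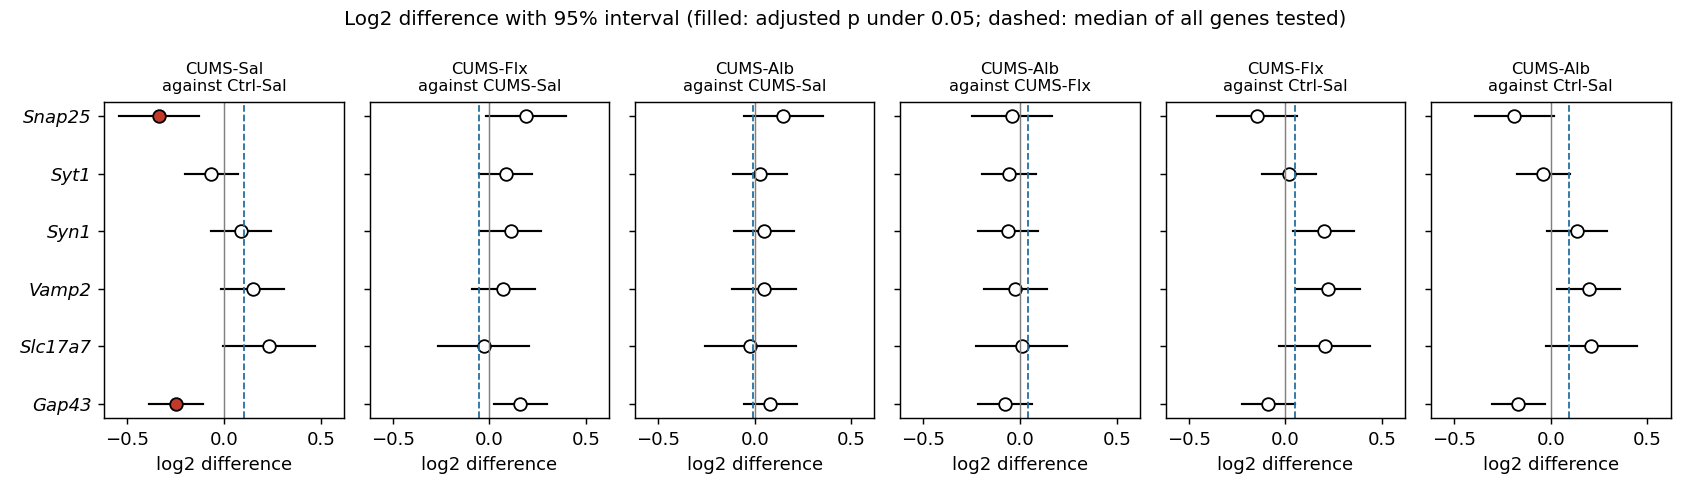
Log2 difference of each gene (points) with its 95% interval (lines) in the 6 comparisons, from 1 limma fit; the dashed line is the median of all genes tested. Filled points mark the Snap25 and Gap43 calls in CUMS-Sal against Ctrl-Sal, at -0.34 and -0.25, and no other point passed.

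The genes called lower were also the shortest of the 6. Lengths behind the FPKM scaling were 985 bp for Snap25 and 1481 bp for Gap43, then 2177 bp for Vamp2, 2476 bp for Slc17a7, 3025 bp for Syt1 and 3166 bp for Syn1. Among the 473 genes of up to 2000 bp with a mean of at least 100 FPKM, 8.67% were called lower in CUMS-Sal and the median log2 difference was -0.01. Among the 238 longer genes of that level 1.68% were called lower, with a median of 0.07. Whether length, or the larger share of the 9 abundant rows in Ctrl-Sal, has a part in the Snap25 and Gap43 differences was not tested. With library totals taken without those 9 rows, the log2 differences were -0.43 for Snap25 and -0.34 for Gap43 (adjusted p = 0.0416 and 0.0322).

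**Figure D3:**
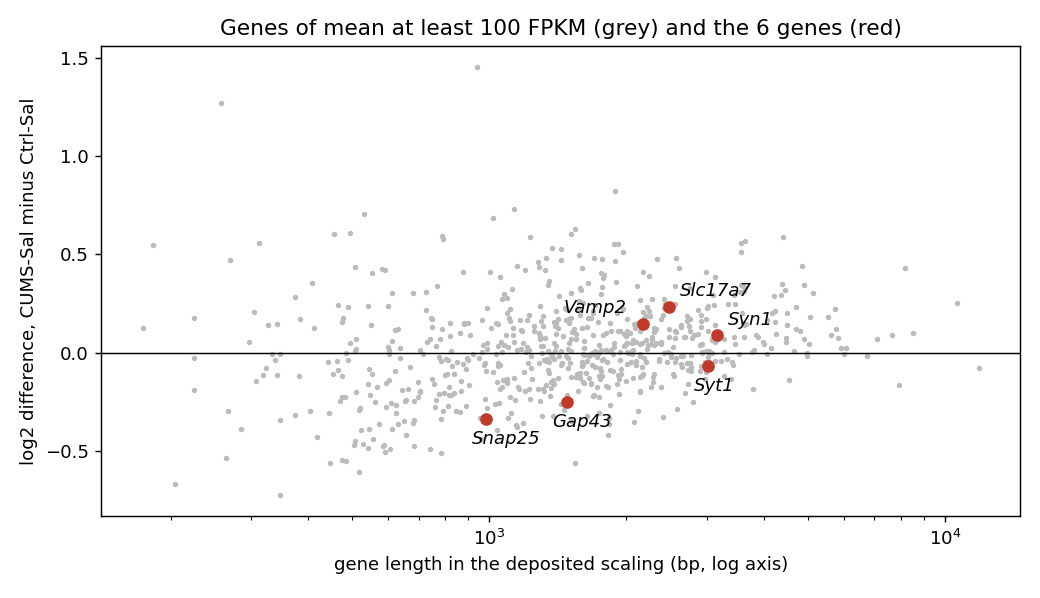
Log2 difference between CUMS-Sal and Ctrl-Sal (vertical axis) against gene length in bp (log axis) for genes with a mean of at least 100 FPKM. The 6 genes are red: Snap25 (985 bp) and Gap43 (1481 bp), the shortest of the 6, lie below 0. Of the longer genes, Vamp2, Slc17a7 and Syn1 (3166 bp) lie above 0 and Syt1 (3025 bp) below it, at -0.07.

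Ratios of a pair of genes in the same library do not depend on the library's total. Of the 15 ratios among the 6 genes, 10 did not overlap between CUMS-Sal and Ctrl-Sal, against 40.8% of all ratios among the 711 genes with a mean of at least 100 FPKM. The 15 ratios share genes and are not separate outcomes. Most of the 10 contained Snap25 or Gap43, whose own values did not overlap. The ratios named next were chosen after their values were seen. Snap25 over Syt1, the membrane SNARE against the calcium sensor, was 3.39, 3.58 and 3.58 in the unstressed libraries and 3.12, 2.77 and 2.86 in CUMS-Sal. That ratio also lay below all Ctrl-Sal libraries in CUMS-Flx, at 3.31, 3.24 and 2.87, and in CUMS-Alb, at 3.18, 3.02 and 3.30. Of the 15 ratios, 7 did not overlap in CUMS-Flx against Ctrl-Sal and 8 in CUMS-Alb against Ctrl-Sal. For these comparisons the share among all ratios was not computed. The same Ctrl-Sal libraries enter each of them, so they are not independent measurements.

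Snap25 over Vamp2, the 2 SNARE genes of the set, was 5.45, 7.00 and 5.43 in the Ctrl-Sal libraries and 4.71, 3.88 and 4.13 in those of CUMS-Sal. Slc17a7 over Gap43 moved the other way, from 4.71, 3.56 and 5.45 to 6.73, 6.41 and 5.78. In both of these ratios Ctrl-Sal replicate 2 was the most extreme of the 12 libraries. Syn1 over Vamp2 ranged from 0.445 to 0.522 over the 12 libraries. It too was among the ratios without overlap, at 0.479 to 0.514 in the unstressed libraries and 0.471 to 0.478 in CUMS-Sal, a log2 difference of -0.06. For 3 against 3 libraries the smallest exact two-sided permutation p is 0.1, which each ratio that did not overlap reached.

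**Figure D4:**
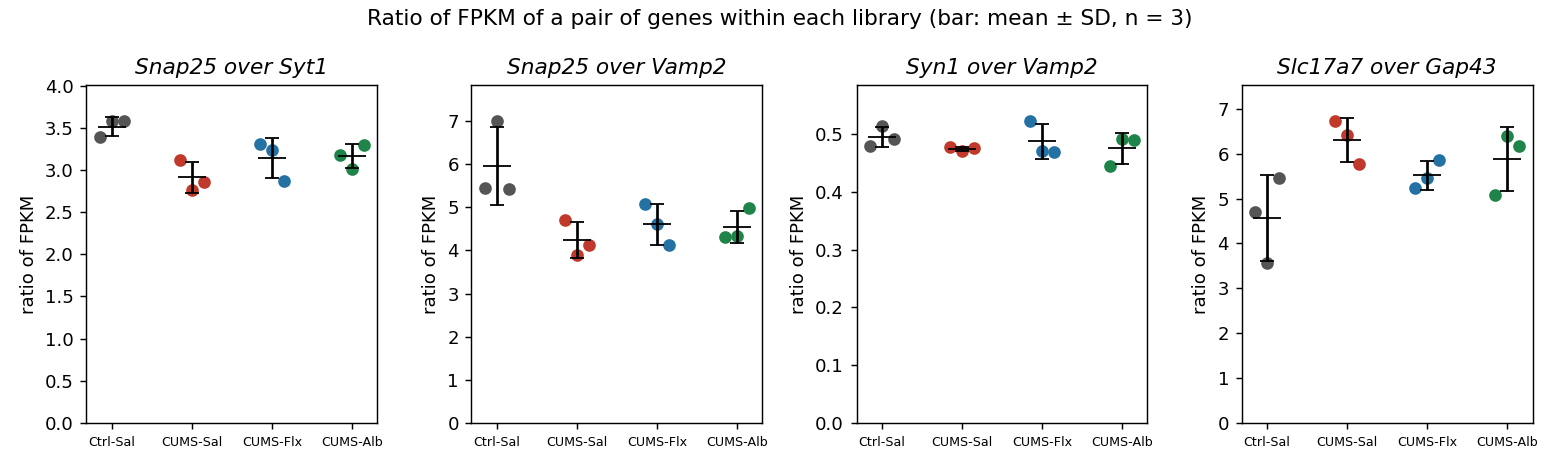
Ratio of the FPKM of a pair of genes within each library (vertical axis, from 0), by group; points are libraries and bars the mean ± SD of 3. Snap25 over Syt1 lies at 3.39 to 3.58 in Ctrl-Sal and below that in the other 9 libraries, and Syn1 over Vamp2 spans 0.445 to 0.522, with CUMS-Sal just below Ctrl-Sal.

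Between stressed rats on fluoxetine and on saline (CUMS-Flx against CUMS-Sal), none of the 6 genes passed the limma test (0% of all genes called). At an unadjusted p under 0.05 stood 1 of the 6, Gap43, against 9.98% of all genes. Limma-voom on recovered reads called none of the 6 either. Libraries did not overlap in 3 of the 6 genes, Syt1, Syn1 and Gap43, all higher in CUMS-Flx. Over all genes the share was 17.9% in either direction and 4.25% in that of higher values.

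Gap43 was at 126, 130.5 and 124 FPKM in CUMS-Flx, above the 110.1 to 117 FPKM of CUMS-Sal. The log2 difference was 0.16 (SE 0.06, 95% interval 0.02 to 0.30, limma adjusted p = 0.45). Snap25 was at 2221, 2219 and 1950.5 FPKM, so that replicate 3 fell among those of CUMS-Sal (log2 difference 0.19, 95% interval -0.02 to 0.39, adjusted p = 0.524). Both genes thus stood between the Ctrl-Sal and CUMS-Sal means, but the same CUMS-Sal libraries enter both comparisons, so these are not independent measurements.

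The vesicle genes Syt1 and Syn1 were even between the CUMS-Flx libraries. Syt1 was at 671.5, 684 and 679.6 FPKM, a coefficient of variation of 0.959%, and Syn1 at 229, 227 and 222 FPKM, at 1.51%. Their log2 differences from CUMS-Sal were 0.08 (95% interval -0.06 to 0.22, adjusted p = 0.687) and 0.11 (95% interval -0.05 to 0.27, adjusted p = 0.632). Vamp2, at 438, 480.6 and 473 FPKM, and Slc17a7, at 659.7, 711 and 725 FPKM, overlapped CUMS-Sal, with log2 differences of 0.07 and -0.03. Ratios did not overlap in 3 of the 15 pairs (20% of all pairs of genes at that level). All 3 had Slc17a7 as the denominator: Syt1, Syn1 and Vamp2 were each higher relative to it in CUMS-Flx.

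For albiflorin, CUMS-Alb against CUMS-Sal, log2 differences ran from -0.02 for Slc17a7 to 0.15 for Snap25. None was called by limma (0% of all genes) or by limma-voom. None had an unadjusted p under 0.05 (3.66% of all genes), and libraries did not overlap in 0 of the 6 genes (11.3% of all genes). Snap25 was at 1977, 2007 and 2219 FPKM in CUMS-Alb, with a log2 difference of 0.15 (95% interval -0.06 to 0.35). Gap43 was at 131, 112 and 117 FPKM, with replicates 1 and 3 above all CUMS-Sal libraries and replicate 2 among them (log2 difference 0.08, 95% interval -0.06 to 0.22). Vamp2 was at 457.9, 463.6 and 446.1 FPKM and Syn1 at 204, 228 and 218 FPKM, each with a log2 difference of 0.05. Syt1, at 622, 665 and 672 FPKM, and Slc17a7, at 666, 718 and 723 FPKM, differed by 0.03 and -0.02. The widest of the 6 intervals was that of Slc17a7, -0.26 to 0.21, and that of Snap25 reached 0.35, so a lack of calls does not show that the groups were alike. Ratios did not overlap in 2 of the 15 pairs (11% of all pairs), Syt1 over Slc17a7 and Syn1 over Slc17a7, both higher in CUMS-Alb.

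Set directly against each other, the drugs did not separate any of the 6 genes. CUMS-Alb against CUMS-Flx had 0 of 6 called by limma and by limma-voom (0.00656% of all genes by limma). It had 0 with an unadjusted p under 0.05 (4.98% of all genes) and 0 without overlap (13.7% of all genes). Log2 differences ran from -0.08 for Gap43 (95% interval -0.22 to 0.06) to 0.01 for Slc17a7 (95% interval -0.23 to 0.24). The intervals do not show that the drugs act alike, since they reach as far as -0.25 for Snap25.

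Against unstressed rats, neither drug group had a called gene among the 6 by limma or limma-voom. The share of all genes called by limma was 0.0524% in CUMS-Flx against Ctrl-Sal and 2.5% in CUMS-Alb against Ctrl-Sal. Limma-voom called 54 and 1221 of its 15678 genes in these comparisons. Unadjusted p was under 0.05 for 17.5% of all genes in CUMS-Flx and for 27.4% in CUMS-Alb. Among the 6 it was so for Syn1 and Vamp2 in CUMS-Flx, at log2 differences of 0.20 (95% interval 0.04 to 0.35, adjusted p = 0.2) and 0.22 (0.06 to 0.38, adjusted p = 0.184). In CUMS-Alb it was so for Vamp2, at 0.20 (0.03 to 0.36, adjusted p = 0.121), and Gap43, at -0.17 (-0.31 to -0.03, adjusted p = 0.119). Libraries did not overlap with Ctrl-Sal in 1 of 6 genes in CUMS-Flx, Syn1 (17.7% of all genes), and in 0 of 6 in CUMS-Alb (31% of all genes).

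The Syn1 and Vamp2 values against Ctrl-Sal rested on the choice of unstressed libraries. Without Ctrl-Sal replicate 3, the highest unstressed library for both, they were called as higher in CUMS-Flx (log2 differences 0.28 and 0.30, adjusted p = 0.0426 and 0.037) and in CUMS-Alb (0.21 and 0.28, adjusted p = 0.0443 and 0.0222). Leaving out that library also raised the number called among all 15253 genes, from 8 to 544 in CUMS-Flx and from 381 to 2356 in CUMS-Alb. Without Ctrl-Sal replicate 2, the lowest library for Vamp2, none of the 6 genes was called in either comparison, and the number called among all genes was 1 in CUMS-Flx and 6 in CUMS-Alb. Syn1 and Vamp2 then stood at 0.16 and 0.15 in CUMS-Flx (adjusted p = 0.457 and 0.447) and at 0.10 and 0.13 in CUMS-Alb (adjusted p = 0.512 and 0.343). The other log2 differences without that library were -0.09 for Snap25, 0.06 for Syt1, 0.05 for Slc17a7 and -0.07 for Gap43 in CUMS-Flx. In CUMS-Alb they were -0.13 for Snap25, 0.00382 for Syt1, 0.06 for Slc17a7 and -0.15 for Gap43. All 3 stressed groups share the Ctrl-Sal libraries, so a low unstressed library moves the 3 comparisons together.

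Over the 4 groups at once, a moderated F test of equal means called 0 of the 6 genes (0.0459% of all genes, 0 of the 6 by limma-voom). The limma adjusted p was 0.126 for Gap43 and 0.164 for Snap25, the 2 genes with an unadjusted p under 0.05, and 0.217 for Vamp2. Such a p was common among all genes. By unadjusted p of the F test Gap43 ranked 1452nd, Snap25 2507th and Vamp2, at 0.0509, 3581st of the 15253 genes. From the highest to the lowest mean, Snap25 and Gap43 had the same order, Ctrl-Sal, CUMS-Flx, CUMS-Alb and CUMS-Sal. Syn1 and Vamp2 shared another, CUMS-Flx, CUMS-Alb, CUMS-Sal and Ctrl-Sal. Syt1 ran CUMS-Flx, Ctrl-Sal, CUMS-Alb and CUMS-Sal, and Slc17a7 ran CUMS-Sal, CUMS-Alb, CUMS-Flx and Ctrl-Sal. In none of these orders did limma call a difference between neighbours.

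Across the 12 libraries, Syn1, Vamp2 and Slc17a7 varied together and Snap25 varied with Syt1. Pearson r of log2(FPKM + 0.5) was 0.85 for Syn1 with Vamp2 (permutation p = 0.00089, 0.01 after Benjamini-Hochberg adjustment over the 15 pairs). It was 0.85 for Vamp2 with Slc17a7 (permutation p = 0.00134, adjusted 0.01), 0.69 for Syn1 with Slc17a7 (permutation p = 0.0078, adjusted 0.0234) and 0.74 for Snap25 with Syt1 (permutation p = 0.00685, adjusted 0.0234). Slc17a7 and Gap43 ran in opposite directions, at -0.64 (permutation p = 0.00497, adjusted 0.0234). By Spearman's rho, at 0.64, 0.60, 0.34, 0.66 and -0.80 in that order, only the last passed (permutation p = 0.00243, adjusted 0.0364). The others had permutation p = 0.0283, 0.0428, 0.275 and 0.0224 (adjusted 0.142, 0.16, 0.429 and 0.142). Permutations shuffled the libraries across groups, so these p-values do not separate differences between groups from variation shared within them. Of 9266 rows outside the 6 genes, 314 had an r over 0.9 with Slc17a7, 150 with Vamp2, 17 with Snap25, 3 with Syn1, 1 with Gap43 and 0 with Syt1. The pattern of Vamp2 and Slc17a7 was thus shared with many rows outside the 6 genes.

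Much of this rested on a few libraries. Without the 2 libraries farthest from the median of the first gene, r was 0.53, 0.45, 0.29, 0.44 and -0.53 for these 5 pairs, and for the 4 pairs other than Snap25 with Syt1 those left out were Ctrl-Sal libraries 1 and 2. Within groups, as r of the deviations from the group means, the values were 0.73, 0.83, 0.64, 0.78 and -0.47. Libraries share a total and its composition, so such values describe these libraries.

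The rows whose pattern over the 12 libraries was most like that of each gene were sought among 9266 rows of mean at least 5 FPKM and are given by ID and r, with no p since they were chosen as the highest. For Snap25 these were ENSRNOG00000047374 (0.948) and ENSRNOG00000007006 (0.944), and for Gap43 ENSRNOG00000003980 (0.904) and ENSRNOG00000016781 (0.892). For Vamp2 they were ENSRNOG00000034071 (0.970) and ENSRNOG00000016778 (0.966), and for Slc17a7 ENSRNOG00000036698 (0.975) and ENSRNOG00000010607 (0.974). Syn1 was nearest to ENSRNOG00000014516 (0.913) and ENSRNOG00000001057 (0.910), and Syt1 to ENSRNOG00000007570 (0.880) and ENSRNOG00000004794 (0.876). An r over 0.9 was reached by 314 rows for Slc17a7 and 150 for Vamp2, the genes whose lowest library was Ctrl-Sal replicate 2, and by 17 for Snap25, 3 for Syn1, 1 for Gap43 and 0 for Syt1.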

How the data were processed

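The aligner TopHat2 and the build rn6 are named per the submitters' processing notes. Its version, the counter, the annotation and any strand setting were not given in the sources used here. For 28959 rows and 12 libraries the authors deposited FPKM, a unit that was read from the values since the header names none. Each library's total was estimated first from these values. Under those totals, whole reads and gene lengths were found for 22737 of 22737 rows above 0 (100%, where whole means within 0.0001 of a read). The length taken was the smallest that gave whole reads, so lengths and reads of some rows may be too small. Recovered reads came to 99.99% of the total in each library. Limma 3.58.1 (R 4.3.3, trend and robust) was fitted to log2(FPKM + 0.5) over the 15253 rows of mean 0.5 FPKM or more, with all 12 libraries, 1 coefficient per group and calls at an adjusted p under 0.05. The fit was also run on simulated data in which each gene varied on its own. Shifts shared by many genes of a library were not simulated, so that run does not bear on them. Limma-voom used rows with a mean of at least 10 recovered reads. Replicates differed by more than counting noise in every pair. Correlations used 100000 permutations of the 12 libraries, made without regard to group. The named genes are the 6 genes and, for each, the 2 rows of highest r. The members and lists were chosen with earlier results of these data known. Lists of other presynaptic and axon growth genes and of cell type markers could not be applied, because 0 Ensembl IDs matched the reference. Alternatives were variance settings, 3 scalings, filters, pseudocounts, the groups in the fit, the replicate number as a block, the threshold, limma-voom and leaving out each library. Totals without the 9 abundant rows were chosen after seeing the data, as were the ratios and length classes. Figures used matplotlib 3.10.9 in Python 3.11.15.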

Additional observations from a re-analysis of the deposited data

How the results depend on the processing

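Of 954 values under alternatives, 867 were taken as the same, 31 moved, 32 reversed, 18 were weaker and 6 stronger. Test results were the same if they kept their direction and side of the threshold, and counts if they stayed within the bounds set. Correlations were the same if r kept its sign and changed by at most 0.1, and moved if it changed by more. For CUMS-Sal against Ctrl-Sal, 2 of the 6 genes were called (1402 of all genes). The number was 0 without the trend and robust settings (740 genes), 0 with no filter (251), 0 with only the 2 groups in the fit (0) and 1, Gap43, after quantile normalisation (529). It ranged from 0 to 3 when a library was left out (1 to 2637 genes). Leaving out a library gave 0 to 2 calls for CUMS-Flx against Ctrl-Sal and 0 to 2 for CUMS-Alb against Ctrl-Sal. The other 3 comparisons and the F test had 0 of the 6 called under every alternative run, while the F test called 7 of all genes, 388 by limma-voom, 134 with a minimum mean of 5 FPKM and 803 at an adjusted p under 0.1. Some alternatives tested other numbers of genes or libraries, and why the counts differed was not tested.

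With the replicate number as a replicate block, 0 of the 6 genes were called (565 of all genes), at an adjusted p of 0.0735 for Snap25 and 0.0596 for Gap43. The labels do not say what the numbers share, and same-numbered libraries had correlations of their deviations from -0.159 to 0.127 (median -0.01, 1 of 18 over 0.1), so the numbers were not taken as pairs.

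With library medians set equal, the log2 difference was -0.063 for Syn1 and -0.00291 for Vamp2 in CUMS-Sal against Ctrl-Sal, 0.038 for Slc17a7 in CUMS-Flx against CUMS-Sal, -0.0437 for Slc17a7 in CUMS-Alb against CUMS-Flx and -0.0653 for Syt1 in CUMS-Flx against Ctrl-Sal. With median deviations set to 0, the values were -0.0148 for Syn1, 0.0228 and -0.0348 for Slc17a7 and -0.0324 for Syt1 in these comparisons. Without the 9 abundant rows they were -0.000591 for Syn1, -0.0174 for Slc17a7 (CUMS-Alb against CUMS-Flx) and -0.0424 for Syt1. Quantile normalisation gave -0.0428 for Syt1 in CUMS-Alb against CUMS-Sal, 0.0374 for Snap25 in CUMS-Alb against CUMS-Flx and -0.0235 for Syt1 in CUMS-Flx against Ctrl-Sal. Leaving out a library gave ranges across 0 for Slc17a7 in CUMS-Flx against CUMS-Sal (-0.0716 to 0.0106), in CUMS-Alb against CUMS-Sal (-0.0637 to 0.0152) and in CUMS-Alb against CUMS-Flx (-0.0329 to 0.0454). It did so for Syt1 in CUMS-Alb against CUMS-Sal (-0.0119 to 0.0629), in CUMS-Flx against Ctrl-Sal (-0.0317 to 0.0595) and in CUMS-Alb against Ctrl-Sal (-0.0873 to 0.00382), and for Vamp2 in CUMS-Alb against CUMS-Flx (-0.0649 to 0.00201). Among pairs whose correlation had not passed, r turned to 0.12 (Snap25 with Syn1), 0.10 (Syn1 with Gap43) and 0.27 (Vamp2 with Gap43) without the 2 farthest libraries. As deviations from group means r was 0.32 (Snap25 with Syn1), -0.23 (Snap25 with Gap43), 0.064 (Syt1 with Vamp2) and -0.53 (Syt1 with Gap43).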
